A study of Mus musculus with 12 samples.

Results

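Thy1, Cd2, Cd6 and Cd200 encode 4 glycoproteins that sit on the surface of T cells, and they were taken by name as 4 of the 13404 entries of a gene count table from mouse splenic CD4 T cells. All 4 passed the filter on low counts, which left 9495 genes for testing. RNA sequencing had been done on 2 sorted populations: CD4+CD25+ regulatory T cells (Treg), which hold immune reactions in check, and CD4+ conventional T cells (Tconv). Each population came from wild-type C57BL/6 mice of 2 months (young), from wild-type C57BL/6 mice of over 18 months (aged), and from C57BL/6 mice of 2 months whose genotype label is Dcaf1-deficient. That made 6 groups of 2 libraries, 12 libraries in all. The labels give neither the Dcaf1 allele nor what drives its deletion, and do not say whether the 2 libraries of a group came from separate animals, so p-values measure only the spread between these libraries.

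Thy1 (CD90) is a small immunoglobulin-superfamily protein held in the membrane by a glycosylphosphatidylinositol anchor, and in mice it is a general marker of T cells. CD2 binds CD48 on neighbouring cells and signals through a long cytoplasmic tail that docks kinases and adaptors, and CD6 is a scavenger-receptor protein, sister to CD5, that binds CD166 (Alcam) and recruits adaptors of the T cell receptor pathway. CD200 works in the other direction: it is itself a ligand, with a very short tail, and engages an inhibitory receptor found mostly on myeloid cells and on some T cells.

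The 4 genes lie on separate chromosomes and no annotated gene overlaps them (GENCODE M21 on mm10). Thy1 has 4 exons at chr9:44043384-44048579 on the plus strand. The other 3 are on the minus strand, Cd2 with 5 exons at chr3:101275899-101287939, Cd6 with 13 exons at chr19:10789341-10830058 and Cd200 with 6 exons at chr16:45382135-45409053. RefSeq's promoter table (GRCm38.p6), as used here, had an entry for Cd200 alone among the 4, so only its 250 bases before the start are shown. They lie at chr16:45409054-45409303 on the minus strand and read 5′ to 3′, with a GC box (GGGCGG) in capitals.
Cd200: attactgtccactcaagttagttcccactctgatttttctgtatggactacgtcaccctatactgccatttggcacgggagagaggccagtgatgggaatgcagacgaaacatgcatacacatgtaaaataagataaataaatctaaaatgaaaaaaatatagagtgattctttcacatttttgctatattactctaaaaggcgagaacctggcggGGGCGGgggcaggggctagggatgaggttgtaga
The GC box occurred once on either strand, in a window that is otherwise AT-rich: its GC content was 42.4%, against a median of 52.4% over 32851 promoters of this length, of which 32.7% held a GC box. The window also had 2 E-boxes (CANNTG, in 66.2% of promoters) and 2 GGAA cores shared by Ets and NFAT factors (in 93.4%), which is little to set it apart. No match was found for AP-1 (TGANTCA, in 6.75%), Runx (TGTGGT, in 14%) or a TATA box (TATAAA, in 12.4%). These are matches of letters in 1 window and no binding was measured.

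The libraries held 18358477 to 26852448 estimated counts, and the 4 genes together took 0.132% to 0.264% of them. The gene named in the labels, Dcaf1 (Vprbp in the table), stood at 144 and 128 CPM (counts scaled to library size with edgeR's TMM factors) for young Treg and at 102 and 101 CPM for Treg with the label Dcaf1-deficient. Young Tconv had 147 and 144 CPM and both labelled Tconv libraries had 132, and neither difference passed (log2 fold changes -0.42 and -0.14, edgeR adjusted p 0.148 and 0.731). Since a deleted exon need not show in the summed count of a gene, the libraries are referred to by their label ("labelled") below. The Treg genes Foxp3 and Il2ra were high in the Treg libraries (535 to 1986 CPM and 576 to 1337 CPM), but Foxp3 also reached 334 and 675 CPM in the aged Tconv libraries, against 47.7 to 80.8 in the other Tconv libraries. Transcripts of other blood cells differed widely between Treg libraries: 8 macrophage markers (of 10 listed) summed to 91.7 to 2655 CPM in young Treg, 512 to 6588 in aged Treg and 7870 to 9487 in labelled Treg, and to at most 730 CPM in any Tconv library. B cell markers (6 of 8 listed) summed to 81.9 to 2495, 114 to 1923 and 2271 to 2362 CPM in the same 3 Treg groups, and to 42.3 to 371 in Tconv. Erythroid markers (6 of 8 listed) summed to 19.7 to 1584, 148 to 4537 and 5342 to 12050 CPM in the Treg groups and to 6.48 to 1505 in Tconv. No marker of these 3 lists was at 0 in any library. The summed markers ranged over the 12 libraries from 0.188 to 540 CPM for neutrophils (7 of 8 listed), 6.45 to 344 for dendritic cells (4 of 5), 6.64 to 89.5 for NK and CD8 cells (3 of 5), 65.0 to 370 for endothelial and stromal cells (5 of 6) and 2.90 to 16.0 for platelets (3 of 3). T cell markers (4 of 6) summed to 1230 to 3574 CPM in Treg and 3490 to 5506 in Tconv, and the 5 Treg markers to 2133 to 8046 and 413 to 3486. Aged Tconv libraries held 2306 and 3486 CPM of these Treg markers, and the other Tconv libraries 413 to 491. Il2ra was not raised in aged Tconv, at 43.1 and 29.7 CPM.

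Some libraries stood apart before any test. Over 9495 genes, the library most like aged Treg 1 was labelled Dcaf1-deficient Treg 1 (Pearson r of log2 CPM 0.993), and the other aged Treg library ranked sixth (r 0.914). Aged Treg 2 was closest to aged Tconv 2 (r 0.944). These 2 libraries alone carry the tag L3 in their titles, and the meaning of the tags is not stated. The tag L5 occurred in Tconv libraries only. Both labelled Treg libraries carry L4 and both labelled Tconv libraries carry L5, so tag and cell type cannot be told apart between them. Xist, a transcript of female cells, was at 1263 to 2018 CPM in both L3 libraries, in labelled Treg 2 and in both labelled Tconv libraries, and at 1.37 to 2.94 CPM in the other 7, so that it differed within 3 groups. In Tconv it was at 1321 and 1339 CPM in the labelled and at 2.39 and 2.64 in the young libraries. The label and Xist therefore cannot be told apart in Tconv, nor in the label interactions that use this comparison. Whether labels were exchanged, or a group held mice of both sexes, cannot be told apart here, so each comparison of aged or labelled cells below rests on labels about which this doubt remains. Results below are therefore also given without libraries that stood apart where that changes them.

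Thy1 was higher in Tconv than in Treg in each of the 3 conditions. In young Treg it was at 733 and 544 CPM and in young Tconv at 1127 and 1110. In aged Treg it was at 480 and 305 CPM and in aged Tconv at 844 and 569. In labelled Treg it was at 505 and 417 CPM and in labelled Tconv at 1215 and 1184. The 2 cell types did not overlap within any condition, but over all 12 libraries they did, because aged Tconv 2 fell among the young Treg values. The means over the 6 libraries of a cell type were 497 ± 143 CPM in Treg and 1008 ± 252 in Tconv (SD, n = 6). In bulk RNA fewer T cells and less of a transcript per cell cannot be told apart. The summed macrophage and erythroid markers, given above, were highest in the labelled Treg libraries. The B cell sum was highest in young Treg 2 (2495 CPM). Dendritic markers and NK and CD8 markers were highest in labelled Tconv 2 (344 and 89.5 CPM), and endothelial and stromal markers in young Tconv 2 (370 CPM).

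Fitted over all 12 libraries, Thy1 was lower in Treg by 1.01 on the log2 scale (log2 fold change -1.01, SE 0.16, 0.496-fold, edgeR adjusted p 0.00643). In this comparison of all Treg with all Tconv 22.5% of the tested genes were called, so the 2 of the 4 genes that passed, Thy1 and Cd200, are to be read against a high background. The Thy1 difference also passed in labelled Treg against labelled Tconv (-1.38 on the log2 scale, SE 0.27, edgeR adjusted p 0.0479), where 2.22% of genes were called and 1 of the 4 genes was among them. In that comparison the tag differs wholly with the cell type. With a term for the tag Thy1 did not pass there (-1.42, edgeR adjusted p 0.12), and 12 genes were called instead of 211. The Thy1 difference did not pass in the young (-0.81, SE 0.27, edgeR adjusted p 0.23) or the aged (-0.85, SE 0.27, edgeR adjusted p 0.169). With RLE size factors, the scaling of DESeq2, the labelled difference just missed the threshold (-1.34, edgeR adjusted p 0.0518). Leaving out 1 library ended this call for any of the young Tconv, labelled Treg or labelled Tconv libraries (-1.53 to -1.25, edgeR adjusted p 0.109 to 0.308) and for young Treg 1 (-1.38, edgeR adjusted p 0.0502), whereas the call over all libraries held each time.

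Thy1 was lower in the aged than in the young in both cell types, without overlap between the groups, and neither difference passed. For Treg the log2 fold change was -0.70 (SE 0.27, 95% interval -1.32 to -0.09, edgeR adjusted p 0.239), and for Tconv -0.66 (SE 0.27, -1.28 to -0.05, edgeR adjusted p 0.15). The lowest value of each cell type was in the aged library with the tag L3. Labelled Tconv, high in Xist where young Tconv was low, differed little from young Tconv in Thy1 (0.10, SE 0.27, 95% interval -0.51 to 0.71), although these groups did not overlap either. Labelled Treg was below young Treg without overlap (-0.47, SE 0.27, edgeR adjusted p 0.285).

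**Figure D1:**
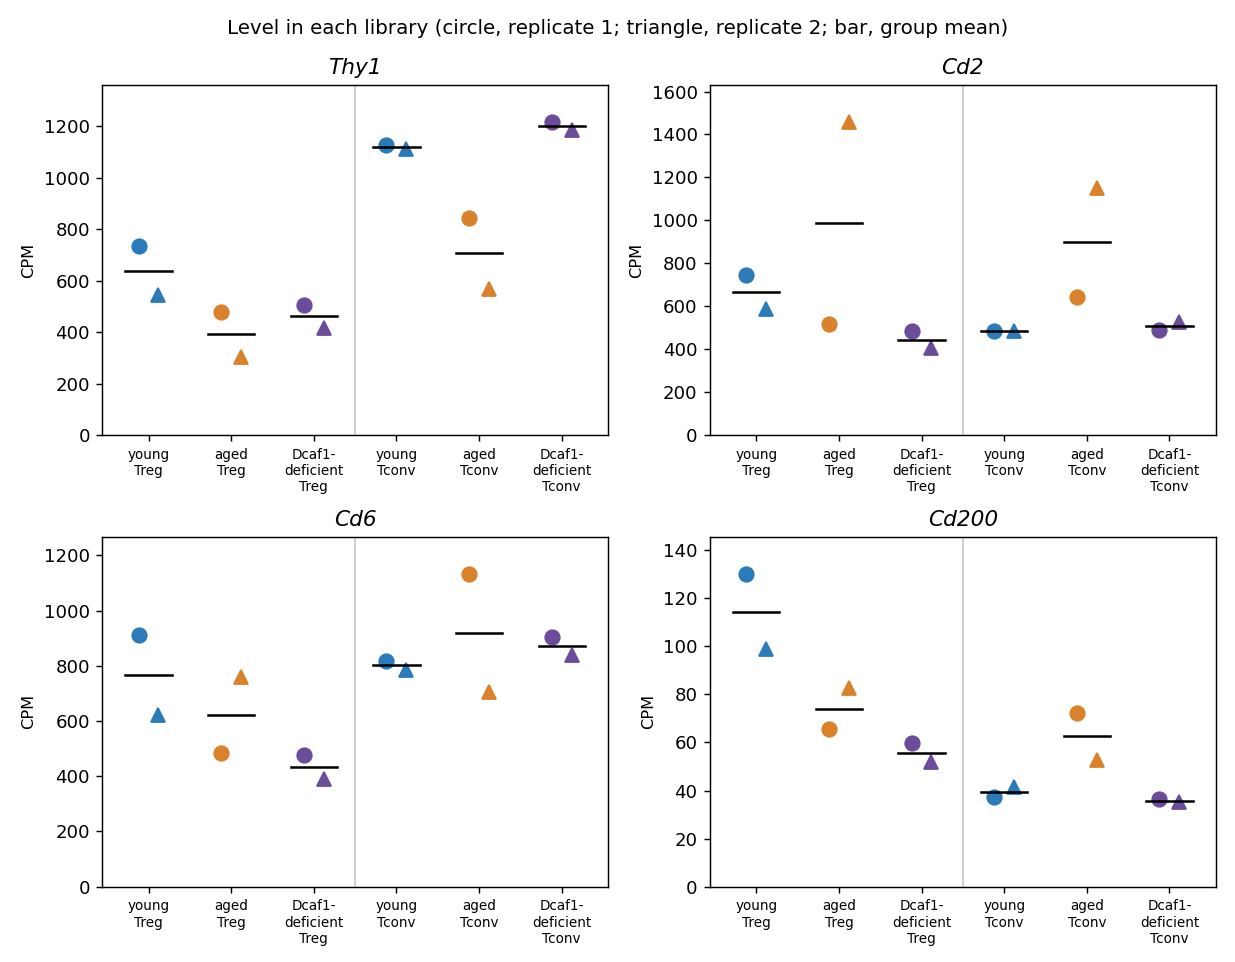
Levels of Thy1, Cd2, Cd6 and Cd200 in the 12 libraries (vertical axis, CPM, starting at 0; circles and triangles are replicates 1 and 2, bars are group means, the grey line separates Treg from Tconv). Thy1 is highest in young and labelled Tconv, Cd200 is highest in young Treg, and Cd2 peaks in the replicate 2 libraries of both aged groups, at 1456 and 1150 CPM.

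Cd2 showed no overall difference between cell types that exceeded the spread of the libraries. The young Treg libraries held 745 and 588 CPM of Cd2, and the young Tconv libraries held 485 and 486. In labelled Treg it was at 485 and 404 CPM and in labelled Tconv at 491 and 526, the opposite order. The fitted log2 fold change of all Treg against all Tconv was 0.13 (SE 0.26, 95% interval -0.46 to 0.72, edgeR adjusted p 0.731), and by condition it was 0.46 (young), 0.14 (aged) and -0.20 (labelled) (edgeR adjusted p 0.673 to 0.902).

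The widest spread of any of the 4 genes within a group was that of Cd2 in aged cells. Aged Treg 1 held 515 CPM and aged Treg 2 held 1456, the highest Cd2 value of the 12 libraries. Aged Tconv 1 held 645 CPM and aged Tconv 2 held 1150, the next highest. The aged libraries with the tag L3 thus had the most Cd2 and the least Thy1 of their cell type, while aged Treg 1 lay for Cd2 below both young Treg libraries. For Treg the log2 fold change of aged against young was 0.56 (SE 0.45, edgeR adjusted p 0.523), for Tconv 0.89 (SE 0.45, edgeR adjusted p 0.236), and without aged Treg 2 the value in Treg turned to -0.37.

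The ratio of Cd2 to Thy1 counts, in which a scaling of the library cancels, set the cell types apart in the young. It was 1.02 and 1.08 in young Treg against 0.430 and 0.438 in young Tconv, and 0.959 and 0.968 in labelled Treg against 0.404 and 0.445 in labelled Tconv. These 8 libraries fell into 2 tight ranges by cell type that did not overlap. In the aged the cell types overlapped, at 1.07 and 4.78 in Treg and 0.764 and 2.02 in Tconv, with the higher value of each in the L3 library. Aged Tconv 2 exceeded 5 of the 6 Treg libraries. No test was run on the ratio. How many other pairs of genes set the 8 young and labelled libraries apart in this way was not computed.

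**Figure D2:**
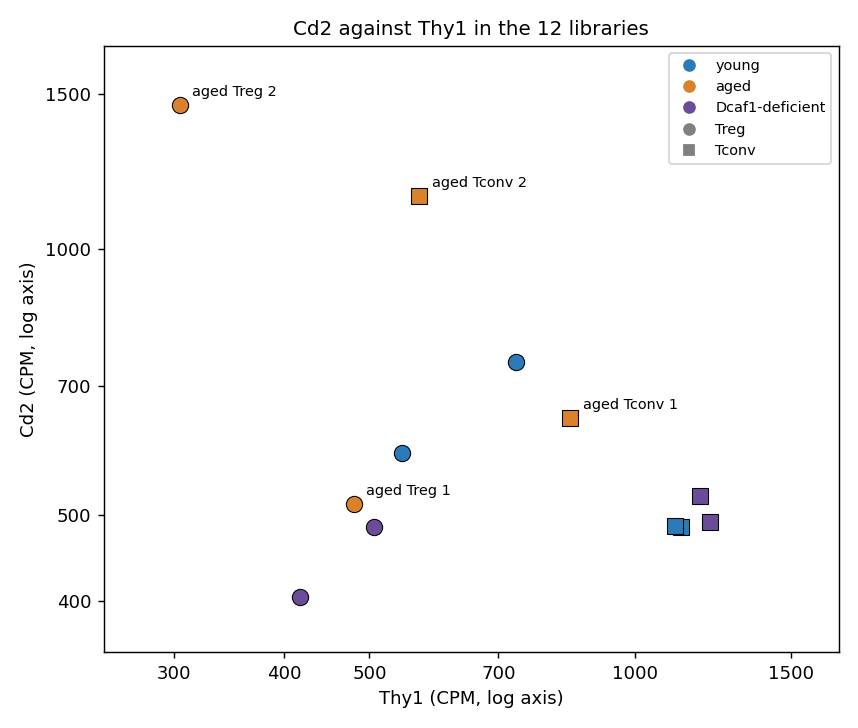
Cd2 against Thy1 in each of the 12 libraries (both axes in CPM, logarithmic; circles are Treg, squares are Tconv, colours give the condition). Young and labelled Tconv group at lower right, the Treg libraries other than aged Treg 2 lie along a line at a ratio of 0.959 to 1.08, and the aged replicate 2 libraries of both cell types lie apart at upper left.

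Cd6 was similar in young Treg and young Tconv and lower in Treg in the labelled libraries. Young Treg held 912 and 621 CPM of Cd6 and young Tconv 819 and 784, overlapping ranges. In labelled Treg it was at 479 and 391 CPM and in labelled Tconv at 905 and 839. In aged Treg it was at 485 and 761 CPM and in aged Tconv at 1132 and 705.2, again overlapping. The labelled Treg libraries thus held the lowest values, and aged Treg 1 was next to them.

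The fitted log2 difference of Cd6 between all Treg and all Tconv was -0.54 (SE 0.17, 95% interval -0.94 to -0.15), close to the threshold without passing it (edgeR adjusted p 0.0551), and it passed with DESeq2 (-0.52, DESeq2 adjusted p 0.0109). It also passed in edgeR without young Treg 1, aged Treg 2 or aged Tconv 2 (-0.65, -0.67 and -0.65, adjusted p 0.0401, 0.0254 and 0.027). Young, aged and labelled libraries gave log2 fold changes of -0.06 (SE 0.30, edgeR adjusted p 0.944), -0.56 (SE 0.30, edgeR adjusted p 0.346) and -1.004 (SE 0.30, edgeR adjusted p 0.104). Labelled Treg against young Treg gave -0.82 (SE 0.30, edgeR adjusted p 0.164) with no overlap. Among Tconv neither age nor the label moved Cd6 beyond the spread (0.20 and 0.12, edgeR adjusted p 0.692 and 0.888).

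Cd200 was the 1 gene of the 4 that was clearly higher in Treg than in Tconv, and the fitted difference was largest in the young. Young Treg held 130 and 98.9 CPM, and young Tconv held 37.2 and 41.5. This is a 2.91-fold difference (log2 fold change 1.54, SE 0.21, 95% interval 1.07 to 2.02, edgeR adjusted p 0.0277). In this comparison 0.800% of all tested genes were called and Cd200 was the 1 called among the 4. The call was lost, with the direction unchanged, without young Treg 1 (1.33, edgeR adjusted p 0.0927), without either young Tconv library (1.49 and 1.64, edgeR adjusted p 0.235 and 0.146) and without any of the 4 labelled libraries (1.54 to 1.56, edgeR adjusted p 0.0675 to 0.085).

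In the aged, where the Tconv libraries also held Treg markers, the gap was small. Aged Treg held 65.5 and 82.8 CPM and aged Tconv held 72.2 and 52.9, ranges that overlap (log2 fold change 0.25, SE 0.20, edgeR adjusted p 0.526). In this comparison of aged Treg with aged Tconv 0.821% of genes were called and 0 of the 4 by edgeR, with 1 of the 4, Thy1, at an unadjusted p of 0.013. DESeq2 called 1 of the 4, again Thy1 (adjusted p 0.0429), and limma called 0. Labelled Treg held 59.7 and 51.8 CPM and labelled Tconv held 36.6 and 35.1, which do not overlap (log2 fold change 0.64, SE 0.20, edgeR adjusted p 0.116). Over all libraries Cd200 was 1.75-fold higher in Treg (0.81 on the log2 scale, SE 0.12, edgeR adjusted p 0.00529), with means of 81.5 ± 29.2 CPM in Treg and 45.9 ± 14.4 in Tconv (SD, n = 6), and the ranges of the 2 cell types overlapped through the aged Tconv libraries.

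Aged libraries had less Cd200 than young ones in Treg and more in Tconv. The sum of the 5 Treg markers was also higher in aged Tconv, at 2306 and 3486 CPM against 413 and 491 in young Tconv. Of the 5 markers 4 were higher, and Il2ra was not (log2 fold change -0.38, edgeR adjusted p 0.512). Ctla4 alone held 1078 and 1673 CPM in aged Tconv. The relation of these markers to Cd200 was not tested. In both cell types the aged and young libraries did not overlap, and neither log2 difference passed: -0.63 in Treg (SE 0.20, 95% interval -1.09 to -0.16, edgeR adjusted p 0.192) and 0.67 in Tconv (SE 0.20, 95% interval 0.20 to 1.13, edgeR adjusted p 0.0761). The difference between these 2 age effects, tested as an interaction, was -1.30 (SE 0.29, unadjusted p 0.00191, edgeR adjusted p 0.37), and it passed with DESeq2 (-1.26, DESeq2 adjusted p 0.00768).

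Labelled Treg had less Cd200 than young Treg, with a log2 difference of -1.04 (SE 0.20, 0.487-fold, unadjusted p 0.000915, edgeR adjusted p 0.131), and the groups did not overlap. DESeq2 gave -0.99 with an adjusted p of 0.000501, and edgeR without young Treg 2 and aged Treg 1 gave -1.22 with an adjusted p of 0.0156. Without aged Tconv 1 or aged Tconv 2 the value was -1.04 with edgeR adjusted p-values of 0.049 and 0.048. In Tconv the labelled and young libraries differed little (-0.14, SE 0.20, 95% interval -0.60 to 0.33).

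**Figure D3:**
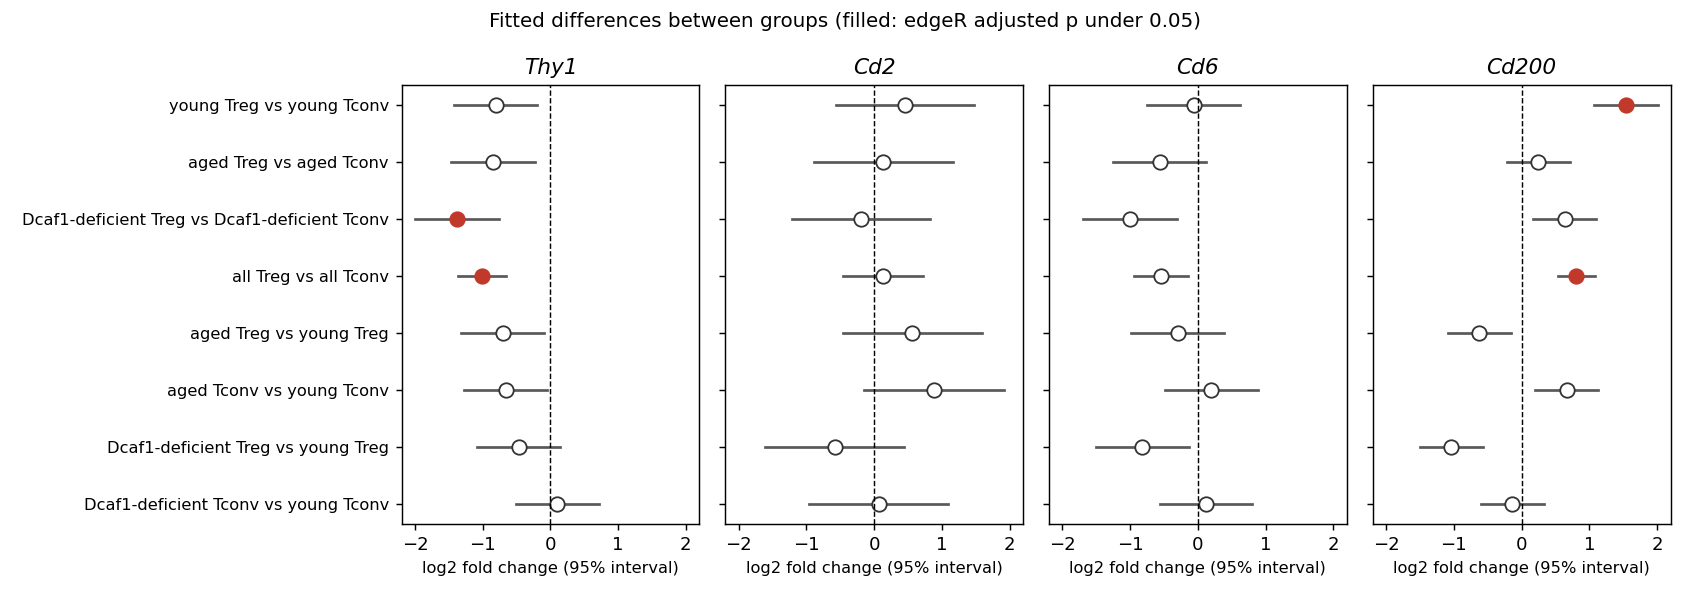
Fitted log2 fold changes of the 4 genes in 8 comparisons (horizontal axis, log2 scale; bars are 95% intervals; a filled red point has an edgeR adjusted p under 0.05). The filled points are Thy1 below 0 in labelled and in all Treg against Tconv, and Cd200 above 0 in young and in all Treg against Tconv.

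The comparisons of aged and labelled cells with young cells share the young libraries, and their values are given side by side only. In aged against young Treg 0% of genes were called by edgeR (1697 genes at an unadjusted p under 0.05, 722 with DESeq2, 2 with limma), and 0 of the 4 genes. In aged against young Tconv 8.86% of genes were called, with 0 of the 4. In labelled against young Treg 0% were called (2359 at an unadjusted p under 0.05, 1185 with DESeq2, 0 with limma), and 0 of the 4, of which Cd6 and Cd200 had unadjusted p-values of 0.0254 and 0.000915. In labelled against young Tconv 0% were called (954 at an unadjusted p under 0.05, 227 with DESeq2, 11 with limma), and the 4 genes had edgeR adjusted p-values of 0.817 to 0.965. The interactions with age and with the label called 0% each (615 and 260 at an unadjusted p under 0.05, 134 and 1 with DESeq2, 1 and 0 with limma), and 0 of the 4 genes.

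Ordered by group mean, Thy1 ran from labelled Tconv (1199 ± 22.02 CPM, SD, n = 2) through young Tconv (1119 ± 11.8), aged Tconv (706.7 ± 195), young Treg (639 ± 133) and labelled Treg (461 ± 62.5) to aged Treg (392.4 ± 124). In that order aged Tconv overlapped young Treg, and labelled Treg overlapped aged Treg. Cd200 ran from young Treg (115 ± 22.03 CPM) through aged Treg (74.1 ± 12.3), aged Tconv (62.5 ± 13.7), labelled Treg (55.8 ± 5.54) and young Tconv (39.4 ± 3.08) to labelled Tconv (35.8 ± 1.09). Here aged Treg, aged Tconv and labelled Treg overlapped in turn. For Cd2 the highest 3 groups, aged Treg (986 ± 666 CPM), aged Tconv (897 ± 357) and young Treg (666 ± 111), overlapped in turn and labelled Treg was lowest (444 ± 57.1). For Cd6 aged Tconv (919 ± 302 CPM) overlapped labelled Tconv (872 ± 46.7), and labelled Treg (435 ± 62.4) was lowest, below aged Treg (623 ± 195). Per kilobase of the longest coding transcript, Cd2 was at 385 to 855 CPM per kb in the 6 groups, Thy1 at 226 to 691, Cd6 at 143 to 303 and Cd200 at 15.3 to 48.8. Cd200 was thus the least abundant transcript of the 4 in each group on the per-length scale.

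The counts of the 4 genes were also set against the summed counts of 3 CD3 genes (Cd3e, Cd3g and Cd247, chains of the T cell receptor complex). The CD3 genes were low in the labelled Treg libraries, where the macrophage, B cell and erythroid markers were high. Cd3e was at 457 and 300 CPM in young Treg, at 203 and 191 in labelled Treg and at 423 and 418 in labelled Tconv.

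On this scale Cd2 did not overlap between the cell types, but genes at large were higher in Treg on it. With CD3 scaling in the edgeR fit the median log2 fold change of all tested genes, all Treg against all Tconv, was 0.90. Cd2 lay 0.04 and Cd200 0.77 above that median, and the share of all genes without overlap was not computed. The Cd2 count was 44.6% to 64.8% of the CD3 counts in the 6 Treg libraries and 25.4% to 38.8% in the 6 Tconv libraries. Cd200 did not overlap either, at 3.63% to 8.77% in Treg and 1.78% to 3.38% in Tconv. Thy1 overlapped, at 13.4% to 67.6% in Treg and 19.2% to 69.1% in Tconv, and the L3 libraries were the lowest in each range. Cd6 overlapped as well, at 33.4% to 64.1% in Treg and 23.8% to 53.0% in Tconv.

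Relative to the CD3 genes, Cd200 in labelled Treg was close to young Treg: 7.98% and 7.61% against 7.79% and 8.77%. Cd6 was at 64.1% and 57.3% against 54.6% and 55.0%, Cd2 at 64.8% and 59.3% against 44.6% and 52.1%, and Thy1 at 67.6% and 61.2% against 43.9% and 48.3%, all 3 higher in the labelled libraries. This scaling raised genes at large in the labelled Treg libraries: in the edgeR fit it moved the median log2 fold change of all tested genes in labelled against young Treg to 0.91, from -0.01 with TMM. Relative to that median Thy1 was at -0.42, Cd2 at -0.55, Cd6 at -0.76 and Cd200 at -0.99, near the values with TMM (-0.46, -0.58, -0.81 and -1.03). This nearness is built in, because a change of library scaling moves all genes about alike. Aged Treg 2 stood apart for Cd200 at 3.63%, with aged Treg 1 at 7.33%.

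**Figure D4:**
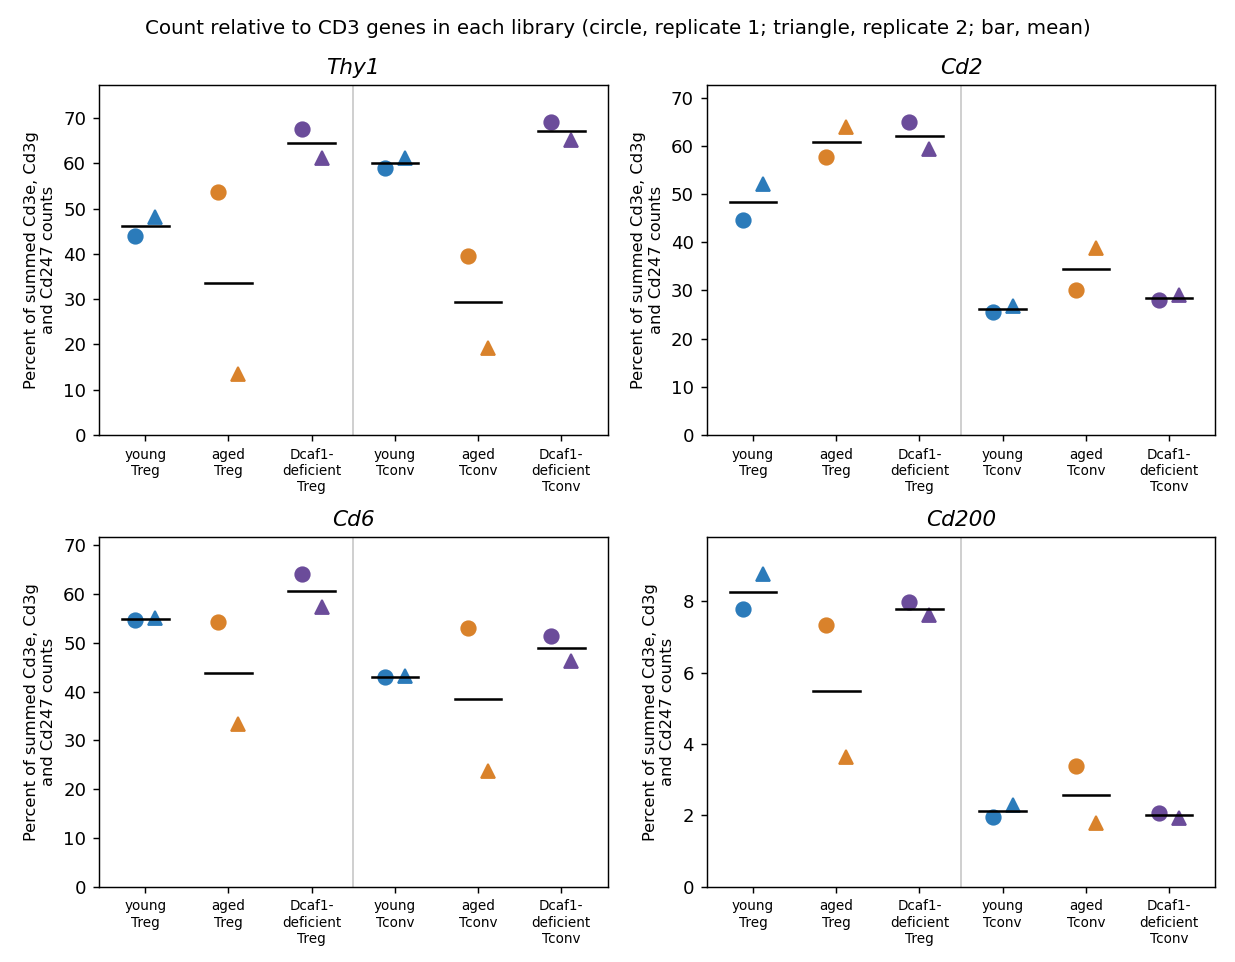
Count of each gene as a percentage of the summed Cd3e, Cd3g and Cd247 counts of the same library (vertical axis, percent, starting at 0; circles and triangles are replicates 1 and 2, bars are group means). For Cd2 and Cd200 the 6 Treg libraries lie above the 6 Tconv libraries, whereas Thy1 and Cd6 overlap. Genes at large were higher in Treg on this scale.

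With libraries scaled to these CD3 genes in the edgeR fit, all Treg against all Tconv gave log2 fold changes of -0.08 for Thy1 (adjusted p 0.816), 0.94 for Cd2 (0.00456), 0.28 for Cd6 (0.28) and 1.67 for Cd200 (0.00222). That scaling moved the median of all 9495 genes by 0.90 and put 98.6% of the called genes on the higher side, against 51.1% with TMM. Relative to that median the 4 values were -0.98, 0.04, -0.62 and 0.77, near those under TMM (-1.01, 0.13, -0.54 and 0.81 relative to the median). A change of library scaling moves all genes by about the same amount, so this nearness is built in and is no separate support. With TMM scaling Thy1 was lower in Treg, and relative to the CD3 genes its difference was near 0, while Cd200 was higher in Treg on both scales.

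Terms for macrophage and B cell transcripts in the fit kept the size of the Thy1 difference between all Treg and all Tconv (-1.06, edgeR adjusted p 0.737) and lowered that of Cd200 (0.40, edgeR adjusted p 0.82), and neither then passed. The Cd200 difference in the young became 1.33 (edgeR adjusted p 0.102) and the Thy1 difference in the labelled libraries -1.44 (edgeR adjusted p 0.149). The part of these other cells in the differences was not tested. Without the 2 aged libraries with the tag L3, Thy1 passed in the young as well (-0.81, edgeR adjusted p 0.0373), where the genes called among all tested went from 76 to 815. Cd6 then passed over all libraries (-0.77, edgeR adjusted p 0.00801), with 4138 genes called instead of 2134. Cd2, Cd6 and Cd200 passed in labelled against young Treg (-0.59, -0.82 and -1.04, edgeR adjusted p 0.0399, 0.0395 and 0.0191), with 1991 genes called instead of 0, so these added calls came with many others.

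The ligands, receptors and adaptors of the 4 proteins were followed as lists, whose counts in all Treg against all Tconv are to be read against the 22.5% of all tested genes called there. Of 9 genes listed for the CD2 and SLAM family 8 were tested, and in all Treg against all Tconv 2 were called higher and 1 lower, with a list median of -0.16 against 0.00 for all genes. Cd48, the ligand of CD2, was 0.21 higher in Treg on the log2 scale (SE 0.06, edgeR adjusted p 0.0483). Slamf1, a self-binding relative of CD2, was 0.99 higher (SE 0.27, edgeR adjusted p 0.0353), and Sh2d1a, the adaptor SAP of that family, was lower (log2 fold change -0.87, SE 0.19, edgeR adjusted p 0.0197). Labelled Tconv had 427 and 442 CPM of Cd48 and young Tconv 249 and 265 (0.76, SE 0.11, edgeR adjusted p 0.131). Labelled Treg had 370 and 386 CPM of Cd48, below labelled Tconv, so the order was reversed in this condition. Slamf1 overlapped there, at 81.5 and 72.4 CPM in labelled Treg and 78.1 and 77.7 in labelled Tconv.

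Of 5 genes listed as partners of the CD2 tail 3 were tested, and all 3 were called lower in all Treg than in all Tconv (22.5% of all genes called), with a list median of -0.80. The log2 fold change was -0.88 for the kinase Lck (SE 0.18, edgeR adjusted p 0.0164) and -0.80 for the kinase Fyn (SE 0.17, edgeR adjusted p 0.0183). It was -0.79 for the adaptor Pstpip1 (SE 0.12, edgeR adjusted p 0.0056). Young Treg held 1383 and 873 CPM of Lck, labelled Treg 545 and 544 and the Tconv libraries 1403 to 1684, which is lowest where the CD3 genes were lowest.

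For CD6, 5 of 7 listed genes were tested, and in all Treg against all Tconv they had edgeR adjusted p-values of 0.158 to 0.536. Alcam, the main ligand of CD6, rose with age in Tconv, from 9.81 and 18.2 CPM to 47.5 and 135 (log2 fold change 2.71, SE 0.64, edgeR adjusted p 0.0422). In Treg it was at 20.4 and 31.2 CPM in the young and at 39.1 and 110 in the aged (1.53, SE 0.61, edgeR adjusted p 0.252), with both maxima in the L3 libraries. The adaptor gene Lcp2 (SLP-76) ranged from 507 to 1013 CPM with no call.

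For CD200, 5 of 7 listed genes were tested and 1 was called in all Treg against all Tconv, no more than the 22.5% of all genes called there, with a list median of -0.09. The called gene, Cd200r1, the inhibitory receptor of CD200, was higher in Treg (0.83 on the log2 scale, SE 0.18, edgeR adjusted p 0.0201), at 41.5 to 133 CPM in Treg and 31.0 to 46.8 in Tconv. The highest value was in aged Treg 2. Cd200r2 and Cd200r3, relatives of the receptor, stayed at or below 1.33 and 5.16 CPM, and Dok1, an adaptor of CD200R1, was at 163 CPM in aged Treg 2 and at 31.2 to 77.7 in the other 11 libraries.

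For Thy1, 5 of 6 listed names were tested, the sixth being the older name of Adgre5 (CD97). Again 1 of 5 was called, near the share over all genes. Itgb3, the integrin chain that pairs with Itgav to bind Thy1, was lower in all Treg than in all Tconv (-0.92 on the log2 scale, SE 0.27, edgeR adjusted p 0.0431). By condition its value was -1.47 in the young and -1.58 in the labelled, but 0.29 in the aged (SE 0.46, edgeR adjusted p 0.762). With age Itgb3 fell in Tconv from 242 and 243 CPM to 90.3 and 24.7 (log2 fold change -2.08, SE 0.47, edgeR adjusted p 0.0397). Itgav was at 49.2 and 51.2 CPM in young Tconv and at 94.7 and 291 in aged Tconv (1.94, SE 0.52, edgeR adjusted p 0.0578).

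**Figure D5:**
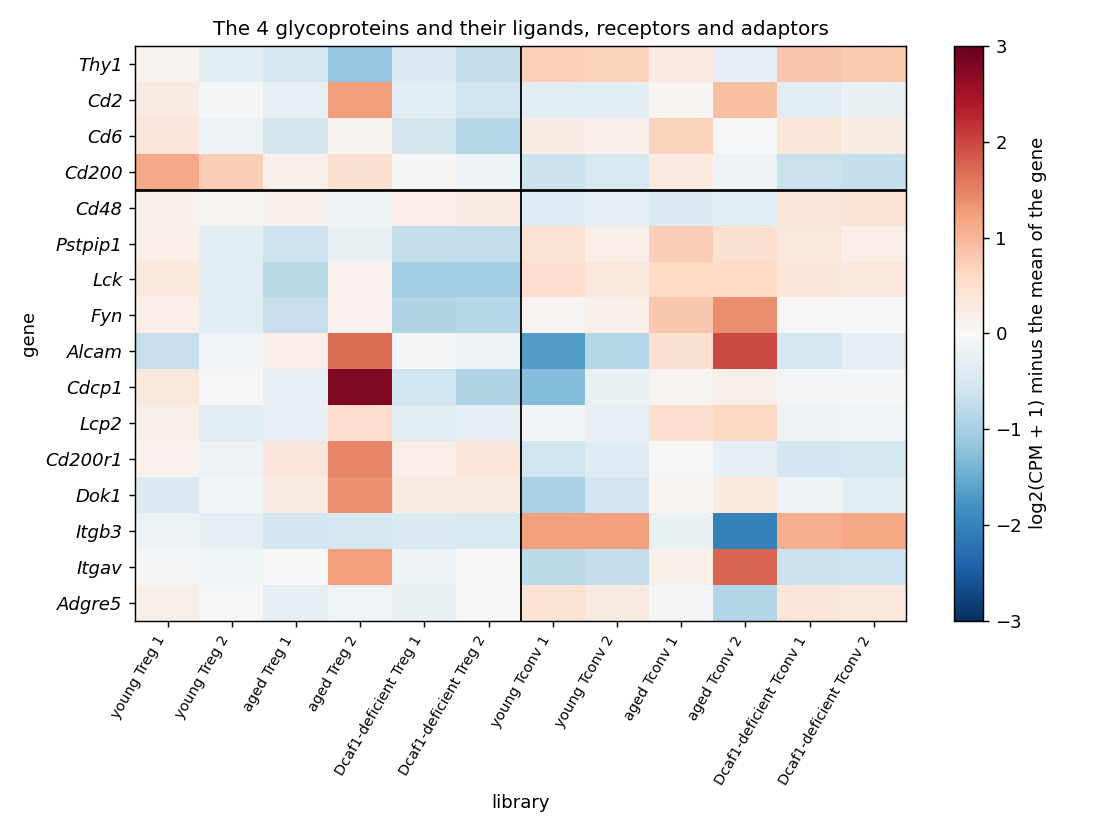
Levels of the 4 genes (above the line) and of 12 genes of their ligands, receptors and adaptors in the 12 libraries, as log2(CPM + 1) minus the mean of the gene (red, above its mean; blue, below). Cd2 and Alcam are highest in aged Treg 2 and aged Tconv 2, Itgb3 is lowest in aged Tconv 2, and Lck is lowest in the labelled Treg libraries.

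Other proteins of the same kind moved in both directions. Of 13 listed genes for surface proteins with the same type of anchor as Thy1 10 were tested, and in all Treg against all Tconv 4 were called higher and 1 lower, against 22.5% of all genes called in either direction (list median 0.50). The prion protein gene Prnp was the leading one (1.97, SE 0.28, edgeR adjusted p 0.00512), and Cd52 was lower (-0.51, SE 0.10, edgeR adjusted p 0.014). Of 22 other T cell surface glycoproteins 19 were tested, with 4 called higher and 5 lower in the same comparison, again against 22.5% of all genes, and a median of -0.23. The co-receptor gene Cd4 was lower in Treg by a log2 difference near that of Thy1 (-1.24, SE 0.18, edgeR adjusted p 0.00549), and Cd28, which costimulates T cells, likewise (-0.91, SE 0.15, edgeR adjusted p 0.00889). Cd44, an adhesion receptor of activated T cells, was higher (0.82, SE 0.13, edgeR adjusted p 0.00692). In aged against young Tconv, where 8.86% of all genes were called, 2 of the 19 were called higher, Ctla4 (3.08, edgeR adjusted p 0.0253) and Icos (1.81, edgeR adjusted p 0.0251), and 2 lower, Selplg and Cd47 (-0.78 and -0.47, edgeR adjusted p 0.0423 and 0.0466). Ctla4 also belongs to the Treg markers that summed higher in aged Tconv.

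Across the 12 libraries the 4 genes did not follow 1 pattern. Pearson's r of log2 CPM was 0.62 between Thy1 and Cd6, 0.44 between Cd2 and Cd200, 0.31 between Cd2 and Cd6 and -0.02 between Cd6 and Cd200. It was -0.45 between Thy1 and Cd2 and -0.57 between Thy1 and Cd200. Among the 6751 tested genes that averaged 10 CPM or more, those most like Thy1 over the 12 libraries were Entpd5 (r 0.982), Cdc42se1 (0.98), Lbr (0.969), Chfr (0.969) and Sun1 (0.967). The genes most like Cd2 were Exoc2 (0.983), Sdf4 (0.968), Gimap7 (0.964), Fam3c (0.962) and Traf3 (0.961), and those most like Cd6 were Dpysl2 (0.968), Sesn3 (0.956), Sash3 (0.949), Stx5a (0.949) and Akt2 (0.946). Cd200 was followed by Ephx1 (0.978) and Mxd4 (0.977) and then at a distance by Ripk2 (0.933), Kcnq5 (0.91) and Rsl1 (0.901). These correlations describe 12 libraries that share groups, and no test is attached to them.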

How the data were processed

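Estimated counts per gene had been deposited by the authors, quantified with Salmon 0.9.1 on mm10 per the submitters' processing notes; the transcript annotation is not given in the sources used here. The authors also deposited log2 values, made with DESeq2 per the submitters' processing notes. The table of estimated counts, of which 23.5% are whole numbers, has 13404 entries, 18 of them with names turned into dates. Genes were matched by symbol, and genes that the table does not hold were not analysed here.

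Rounded counts went into the quasi-likelihood test of edgeR 4.0.16 under R 4.3.3 (TMM scaling, filterByExpr, 9495 genes tested, 6 group means with 6 residual degrees of freedom, Benjamini-Hochberg adjustment within each of 10 comparisons, threshold 0.05). The model was tested on simulated data. CPM were computed on TMM-scaled totals (prior count 2 on the log2 scale). The 4 genes, the 7 pathway lists and the 10 marker lists were chosen with earlier results of these data known. In each list up to 4 called genes with the smallest adjusted p were named, and other partners were named to describe their levels, after their values were seen. Likeness to each of the 4 genes was ranked by Pearson's r, naming 5 genes each.

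Alternatives were DESeq2 1.42.0, limma 3.58.1 on the deposited log2 values, RLE factors, no filter, a log2 fold change of at least 1, CD3 scaling, a block for the replicate number, a tag term, macrophage and B cell terms (mean log2 CPM of the markers), only the groups compared, and leaving out libraries. Leaving out both L3 libraries was added after the data were seen.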

Additional observations from a re-analysis of the deposited data

Results flagged for a closer look

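The Dcaf1 label went with opposite directions in the 2 cell types for 3 of the genes: each labelled Treg library was below both young Treg libraries and each labelled Tconv library was above both young Tconv libraries. How many of the 9495 tested genes show this pattern was not computed, so it cannot be read as particular to these genes. In the label interaction 260 of the tested genes had an unadjusted edgeR p under 0.05. The label effect in Treg minus that in Tconv was -0.570 for Thy1, -0.652 for Cd2 and -0.940 for Cd6 on the log2 scale. Tested as an interaction, none of the 3 passed (edgeR adjusted p 1 for each, unadjusted p 0.167, 0.329 and 0.0556). The differences in Tconv, where Xist also differed throughout between labelled and young libraries, were small, at 0.10, 0.07 and 0.12 (edgeR adjusted p 0.888 to 0.965). Those of Cd2 and Cd6 turned to -0.049 and -0.098 with a term for the tag and to -0.033 and -0.314 with macrophage and B cell terms.

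Cd200 was lower in both aged Treg libraries than in both young ones and higher in both aged Tconv libraries than in both young ones, with a difference of -1.295 between the age effects. The aged Tconv libraries also held more of the summed Treg markers, whose relation to Cd200 was not tested. How many of all tested genes show this pattern was not computed. The interaction had an unadjusted p of 0.00191 and did not pass after adjustment (edgeR adjusted p 0.37), while DESeq2 gave an adjusted p of 0.00768. Without aged Treg 2 and aged Tconv 2 the aged Tconv difference alone was 0.88 (edgeR adjusted p 0.0412).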

How the results depend on the processing

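Results kept their direction and side of the threshold for all 40 combinations of gene and comparison with a replicate block, which called 1, 0, 1 and 2 of the 4 genes in young, aged, labelled and all Treg against Tconv, as without it. Over all genes the replicate block called 40 instead of 76 in the young and 50 instead of 78 in the aged. The labels do not say that equal numbers share an animal or batch. The deviations of Treg and Tconv libraries with the same number correlated at 0.68 (young), 0.27 (aged) and 0.04 (labelled), and those of all other group pairs at -0.66 to 0.18, so the numbers were not taken as pairing the libraries.

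The count of the 4 genes called is given with the count over all genes after "of" for each setting. In labelled Treg against labelled Tconv (1 of 211) it became 0 with RLE factors (of 204), without the filter (of 146), with a term for the tag (of 12) and with terms for macrophage and B cell transcripts (of 52), 2 with CD3 scaling (of 4455), and 3 with DESeq2 (of 1452), with only these groups (of 4712), without both L3 libraries (of 2020), and without young Treg 2 and aged Treg 1 (of 1487). In the young (1 of 76) it became 0 with CD3 scaling (of 75), with the macrophage and B cell terms (of 34) and with only these groups (of 2, Cd200 at 1.56, edgeR adjusted p 0.0701), and 2 without the L3 libraries (of 815). Over all Treg and Tconv (2 of 2134) it became 1 at a log2 fold change of at least 1 (of 901) and with the tag term (of 223, Cd200 1.06, edgeR adjusted p 0.0508), 0 with the macrophage and B cell terms (of 0), and 3, Cd6 being added, with DESeq2 (of 3210) and without the L3 libraries (of 4138). DESeq2 called 1 instead of 0 in aged Treg against aged Tconv (of 971), in aged against young Tconv (of 2043), in labelled against young Treg (of 1185) and in the age interaction (of 134). Labelled against young Treg gave 3 without the L3 libraries (of 1991) and 2 without young Treg 2 and aged Treg 1 (of 2219), and aged against young Tconv gave 1 without the L3 libraries (of 814). Leaving out each library in turn gave 0 to 1 in the young, 0 to 1 in the labelled, 2 to 3 over all, 0 to 1 in labelled against young Treg and 0 to 0 in the other 6 comparisons. The Cd200 call in the young held in 5 of 12 such fits (1.33 to 1.72), the Thy1 call in the labelled libraries in 5 of 12 (-1.53 to -1.25), and both calls over all libraries in 12 of 12.

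Directions turned as follows, and the cause was not tested. The Thy1 age interaction became 0.005 with RLE factors and with DESeq2, 0.026 with limma and 0.577 with CD3 scaling. With the tag term, Cd6 in the young became 0.119, Cd2 in the labelled 0.028, Cd2 in aged against young Treg -0.257, and Cd2 and Cd6 in labelled against young Tconv -0.049 and -0.098. With the macrophage and B cell terms, Cd2 and Cd200 in aged Treg against aged Tconv became -0.346 and -0.704, Cd2 in the labelled 0.136, Cd2 in aged against young Treg -0.008, and Cd2 and Cd6 in labelled against young Tconv -0.033 and -0.314. With CD3 scaling, Cd6 became 0.349 in the young, 0.191 in the aged, 0.313 in the labelled and 0.284 over all, Thy1 in the aged 0.193, Cd2 in the labelled 1.124, Cd6 in aged against young Tconv -0.165, Thy1, Cd2 and Cd6 in labelled against young Treg 0.483, 0.359 and 0.147, and the label interactions of Thy1 and Cd2 0.324 and 0.235. That scaling moved the median of all genes to 0.48, 0.90, 1.34 and 0.90 in young, aged, labelled and all Treg against Tconv, to -0.42 in aged against young Tconv, 0.91 in labelled against young Treg, and 0.44 and 0.82 in the age and label interactions. Relative to these medians each direction named here for CD3 scaling was as with TMM (labelled against young Treg -0.42, -0.55 and -0.76, label interactions -0.49 and -0.58), except the Thy1 age interaction (0.13). A change of library scaling moves all genes about alike, so this return to the TMM directions is built in and is no separate support. Without young Treg 2 and aged Treg 1, the Cd2 age interaction became 0.073 and Cd6 in the young 0.203. Without the L3 libraries, where the lone aged library of each cell type is assumed to vary like the others, Cd2 and Cd200 in aged Treg against aged Tconv became -0.322 and -0.141, Cd2 in aged against young Treg -0.371 and Cd2 over all -0.021. Leaving out 1 library, or young Treg 2 and aged Treg 1, Cd2 ranged from -1.254 to 0.244 (age interaction), -0.798 to 0.707 (aged Treg against aged Tconv), -0.371 to 1.127 (aged against young Treg) and -0.18 to 0.393 (all), Cd200 up to 0.490 (aged Treg against aged Tconv), Cd6 from -0.188 to 0.498 (aged against young Tconv), -0.661 to 0.003 (aged against young Treg) and -0.368 to 0.186 (young), and the Thy1 age interaction from -0.615 to 0.275.

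Counts over all genes ranged, over the alternatives other than leaving out 1 library, from 2 to 815 in the young, 0 to 971 in the aged, 12 to 4712 in the labelled, 0 to 6874 over all, 0 to 722 in aged against young Treg, 3 to 2043 in aged against young Tconv, 0 to 2219 in labelled against young Treg and 0 to 1071 in labelled against young Tconv. For depth, 3 counts correspond to at most 0.167 CPM, and the lowest value of the 4 genes in any library was 35.1 CPM.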
